A study of Rattus norvegicus with 10 samples.

Results

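SLC12A2, SLC12A4 and STK39 encode a pair of cation-chloride cotransporters and the kinase that regulates such carriers, and their transcript levels were followed in the choroid plexus of each of 10 female Wistar rats. The 3 genes were taken by symbol, which the paper's tables pair with an Ensembl identifier, from the 32883 genes listed for each rat: SLC12A2 (ENSRNOG00000015971), SLC12A4 (ENSRNOG00000019651) and STK39 (ENSRNOG00000024808). From 6 weeks of age, 5 rats received the nutrient source-matched control diet, with 10% of its energy from fat, and 5 received the high fat diet (HFD), with 60%. Feeding lasted 21 weeks, the labels give no drug or genetic change in either group, and every rat was 27 weeks old at sampling. Lateral and 4th ventricle plexus of a single rat made up each library, without pooling. The study picked its experimental animals by body weight, light ones on the control diet and heavy ones on the HFD, so that diet and weight cannot be told apart.

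The choroid plexus is the epithelial tissue of the brain ventricles that secretes cerebrospinal fluid (CSF), and ion transport across its cells drives that secretion. SLC12A2 encodes NKCC1, which moves sodium, potassium and chloride together and sits in the luminal membrane of this epithelium. SLC12A4 encodes KCC1, which moves potassium with chloride, normally out of the cell, and is known as a carrier of volume regulation in many tissues. STK39 encodes SPAK, a kinase that is switched on by the WNK kinases and that phosphorylates both kinds of carrier, which raises the activity of NKCC1 and lowers that of the KCC carriers. CAB39 and CAB39L encode the MO25 scaffold proteins that increase SPAK activity, and PPP1CA, PPP1CB and PPP1CC encode the catalytic subunits of protein phosphatase 1, which removes phosphate from many targets. Transcript levels carry no information on phosphorylation.

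The values are TPM, which correct for transcript length and bring each rat to a common total, so that levels can be compared between genes. TPM keep no read number. The paper states a sequencing output, but the number of reads behind each value is unknown. Control rat 1 stood apart before any test. Its median gene ratio to the mean of all rats gave a scaling factor of 0.747, against 0.944 to 1.13 in the other rats, and TTR, the carrier protein that dominates this tissue, took 39.7% of its TPM against 32.2% to 38.2%. Division by these factors gives the rescaled TPM used below. On that scale 1842 genes of this rat still departed over 2-fold from their median elsewhere, and 171 to 235 genes did so in any other rat. Most results are therefore given with and without this rat. In such bulk tissue, fewer cells of a type and less RNA per cell cannot be told apart. All 10 epithelial markers could be named, the lowest at a rescaled TPM of 55.8. Their sum without TTR ran from 12095 to 13271 in control rats and from 12633 to 13259 in HFD-fed rats. That sum hid single markers of control rat 1 that went both ways. AQP1 was 371 there in rescaled TPM against 469 to 651 in the other rats, and KCNJ13 510 against 685 to 876. CLIC6 was 1132 there, against 888 to 1048. With TTR the sum there was 544991, against 300958 to 417667 in the other rats. By limma 1 of the 10 had an unadjusted p under 0.05, higher in HFD-fed rats, beside 3.76% of all genes in that direction. Of the markers of other cells, DCN (stroma), PLVAP (endothelium), RGS5 (mural cells), CD74 and LYZ2 (macrophages) and HBB (blood) could be named, and none was near 0. Symbols were at hand for 2015 identifiers, of which at least 1990 averaged at least 10 rescaled TPM. A marker at a low level could hardly be named, so the levels of named markers do not show which cells were present or absent. Control rat 1 had the lowest RGS5, with a rescaled TPM of 42.8 against 101 to 129 in the other rats, the lowest DCN, with 116, and the highest PLVAP. The part of the cell mixture in its values was not tested.

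The stretches that precede the 3 genes are shown as a description. The RNA data bear only on the level of the product, and where these transcripts start in the choroid plexus was not tested. Each is the 250 bases before the RefSeq gene start, 5′ to 3′ on the gene's strand, in build GRCr8, a later build than the Rnor_6.0 used for the TPM. They lie at chr18:53546083-53546332 (plus strand) for SLC12A2, chr19:50770123-50770372 (minus strand) for SLC12A4 and chr3:73586980-73587229 (minus strand) for STK39. Capitals mark the GC box GGGCGG or its other strand CCGCCC, where overlapping matches merge.
SLC12A2: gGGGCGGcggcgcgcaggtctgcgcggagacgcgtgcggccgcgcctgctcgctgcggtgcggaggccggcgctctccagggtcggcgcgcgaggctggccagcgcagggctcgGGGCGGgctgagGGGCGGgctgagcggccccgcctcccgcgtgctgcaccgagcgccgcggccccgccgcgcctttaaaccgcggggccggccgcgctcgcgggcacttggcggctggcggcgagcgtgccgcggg
SLC12A4: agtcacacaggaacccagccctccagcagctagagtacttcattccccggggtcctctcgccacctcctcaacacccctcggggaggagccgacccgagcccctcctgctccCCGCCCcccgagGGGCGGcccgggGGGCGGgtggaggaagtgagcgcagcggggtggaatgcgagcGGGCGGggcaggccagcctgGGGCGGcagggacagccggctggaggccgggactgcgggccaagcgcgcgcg
STK39: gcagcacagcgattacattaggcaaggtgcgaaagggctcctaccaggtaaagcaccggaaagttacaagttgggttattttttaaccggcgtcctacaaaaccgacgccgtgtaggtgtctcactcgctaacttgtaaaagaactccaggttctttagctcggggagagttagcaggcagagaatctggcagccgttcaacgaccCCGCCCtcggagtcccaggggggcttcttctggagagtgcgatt
The SLC12A2 stretch had a GC content of 83.2%, and 0.296% of 33469 rat promoters of the same length had a higher one. SLC12A4 had 74.8% GC, and STK39, with 53.2%, was close to the median of 51.2%. The GC box had 3 matches before SLC12A2, 5 before SLC12A4 and 1 before STK39, and 30.5% of all promoters held at least 1. CCAAT, present in 34.0% of promoters on either strand, TATAAA, in 12.9%, and TGACGTCA, in 1.59%, were found in none of the 3. A match of letters is a description and was not tied to any factor here.

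STK39 was the most abundant of the 3 transcripts, SLC12A2 came next and SLC12A4 was lowest, and this order held in 10 of 10 rats. With a mean rescaled TPM of 256, STK39 ranked 391 among the 12198 genes that reached a mean of 1 and entered the test. SLC12A2, at 207, ranked 481, and SLC12A4, at 112, ranked 851. Over all rats the ranges of STK39 and SLC12A2 overlapped, but within a rat the level of the kinase was always the higher one. Both cotransporters and the kinase thus lay among the 6.97% most abundant genes.

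The kinase STK39 had rescaled TPM of 281, 278, 254, 247 and 244 in control rats 1 to 5. In HFD rats 1 to 5 the values were 239, 262, 268, 244 and 239. The groups overlapped, with the control rats 1 and 2 highest and 3 of the HFD-fed rats lowest. Control rats averaged 261 ± 17.4 and the HFD group 250.4 ± 13.5 (SD, n = 5 each). On the log2 scale the HFD mean minus the control mean was -0.06 (SE 0.07; exact permutation test, two-sided, p = 0.302). The 95% confidence interval of the difference, by limma, reached from -13.1% to 6.05%. Adjusted across all genes tested, the limma p was 0.694. Without control rat 1 the log2 difference was -0.03, with an interval from -10.4% to 6.58%.

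NKCC1, encoded by SLC12A2, had rescaled TPM of 163, 209, 196, 210.0 and 213 in control rats 1 to 5, and of 189, 227, 244, 214 and 203 in HFD rats 1 to 5. Control rat 1 was the lowest of all 10 rats and HFD rat 3 the highest, and the other 8 rats of both diets were mixed between 189 and 227. Control rats averaged 198 ± 20.8 and the HFD group 215 ± 21.3 (SD, n = 5 each). The log2 difference was 0.12 (SE 0.09; exact permutation p = 0.27, two-sided; adjusted p by limma 0.616). The interval of the difference was wider than for the kinase, from -5.86% to 25.6%. Leaving out control rat 1 moved the log2 difference to 0.05, with an interval from -7.14% to 15.5%, and the control mean to 207 ± 7.39 (SD, n = 4).

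KCC1, encoded by SLC12A4, had rescaled TPM of 134, 118, 106, 109 and 109 in control rats 1 to 5 and of 108, 106, 107, 103.9 and 121 in HFD rats 1 to 5. Control rat 1 was highest of all, HFD rat 5 stood above the rest of its diet, and the other rats of both diets were mixed between 103.9 and 118. Control rats averaged 115 ± 11.5 and the HFD group 109 ± 6.79 (SD, n = 5 each). The log2 difference was -0.07 (SE 0.08; exact permutation p = 0.333, two-sided; adjusted p by limma 0.681). The interval reached from -15.6% to 6.97%. Without control rat 1 the log2 difference was -0.02, with an interval from -9.45% to 7.58%.

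**Figure D1:**
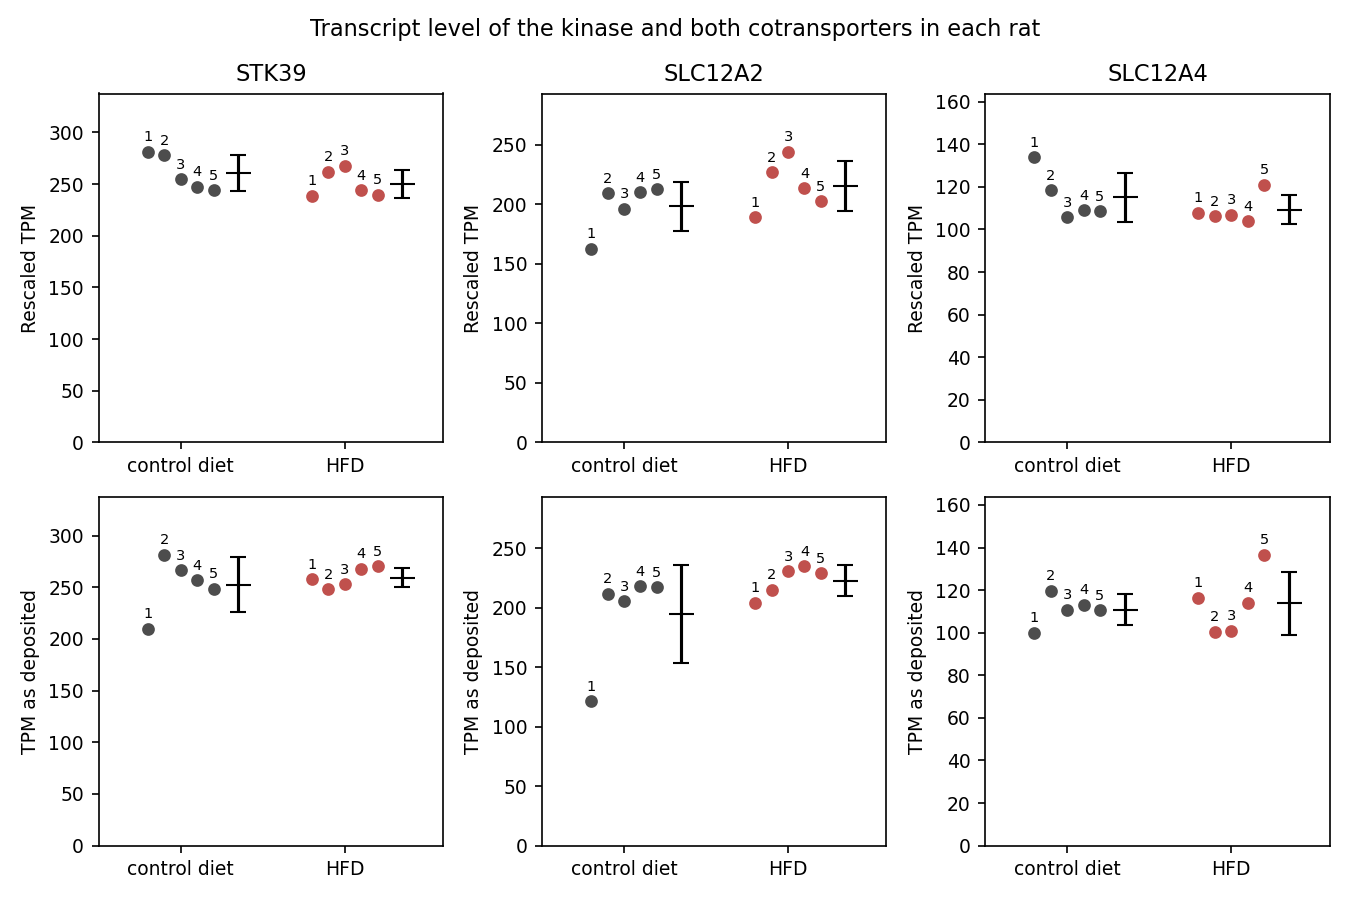
Rescaled TPM (upper row) and TPM as deposited (lower row) of STK39, SLC12A2 and SLC12A4 in each rat, numbered by replicate, with the mean and SD of each diet beside the points. The diets overlap in every panel, and control rat 1 is lowest for SLC12A2 on both scales (163 and 122) but changes place with the scale for STK39, from 281 rescaled to 209.9 as deposited.

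Of the 3 genes, 0 had an adjusted p under 0.05 and 0 an unadjusted p under 0.05. Over all 12198 genes tested these shares were 0% and 8.59% (3.76% higher and 4.83% lower in HFD-fed rats), and the diets did not overlap for 3.42%. Each difference between means was smaller than the larger SD of its pair of diets. STK39 and SLC12A4 changed sign with TPM as deposited, to log2 differences of 0.04 and 0.03, and leaving out control rat 1 on that scale brought them back to -0.02 and -0.0066. SLC12A2 kept a higher mean in HFD-fed rats, at 0.22 with TPM as deposited (exact permutation p = 0.111), where the means were 223 ± 12.8 and 195 ± 41.2 (SD, n = 5 each), but at 0.06 on that scale without control rat 1. Without the rescaling the median log2 difference of all genes was 0.12, against 0.01 with it.

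How closely a transcript was held within a diet differed among the 3. The within-diet SD on the log2 scale was 0.09 for STK39, 0.12 for SLC12A4 and 0.15 for SLC12A2, where the median of the 939 genes with a mean rescaled TPM over 100 was 0.16. Of these 939 abundant genes, 89.5% varied more than STK39, 73.1% more than SLC12A4 and 53.5% more than SLC12A2. Leaving out control rat 1, the SD was 0.08 for STK39, 0.08 for SLC12A4 and 0.11 for SLC12A2, and the median of the abundant genes was 0.10. The shares were then 72.0%, 72.5% and 39.1%. STK39 and SLC12A4 were thus steadier than most of these abundant genes with and without that rat, whereas SLC12A2 was near the middle. The 939 genes were not matched to the members in level. This is a description, not a test.

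The balance between the carriers was read from ratios within a rat, in which any scaling factor cancels. SLC12A2 exceeded SLC12A4 by 1.22, 1.77, 1.85, 1.93 and 1.96 times in control rats 1 to 5 and by 1.75, 2.14, 2.29, 2.06 and 1.68 times in HFD rats 1 to 5. The ratio in control rat 1 was far below all others, and the remaining rats of both diets overlapped. Mean ratios were 1.98 ± 0.259 on the HFD and 1.75 ± 0.305 on the control diet (SD, n = 5 each). The log2 difference was 0.19 (SE 0.15; exact permutation p = 0.262, two-sided, adjusted over 3 ratios 0.393). Without control rat 1 the control mean was 1.88 ± 0.0862 (SD, n = 4), and the log2 difference was 0.07 (exact permutation p = 0.5).

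STK39 transcripts exceeded those of SLC12A2 by 1.73, 1.33, 1.296, 1.18 and 1.146 times in control rats 1 to 5 and by 1.26, 1.154, 1.10, 1.14 and 1.18 times in HFD rats 1 to 5. The kinase was never below the cotransporter, control rats 1, 2 and 3 lay above the HFD range, and control rats 4 and 5 within it. The log2 difference between the diets was -0.18 (SE 0.11; exact permutation p = 0.0952, two-sided, adjusted 0.286), the smallest p of the 3 ratios. Without control rat 1 the control mean was 1.24 ± 0.0889 (SD, n = 4), against 1.17 ± 0.0616 (SD, n = 5) on the HFD. The log2 difference was then -0.08 (exact permutation p = 0.19). Without control rat 5 it was -0.23 (exact permutation p = 0.0397, adjusted over 3 ratios 0.119). Leaving out any other rat gave a value between these. STK39 to SLC12A4 differed least between the diets, with 2.27 ± 0.116 in control rats and 2.30 ± 0.214 on the HFD (SD, n = 5 each). The log2 difference was 0.01 (SE 0.07; exact permutation p = 0.817, two-sided, adjusted 0.817). No ratio thus differed between the diets at an adjusted p under 0.05, with all rats or with any 1 rat left out.

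**Figure D2:**
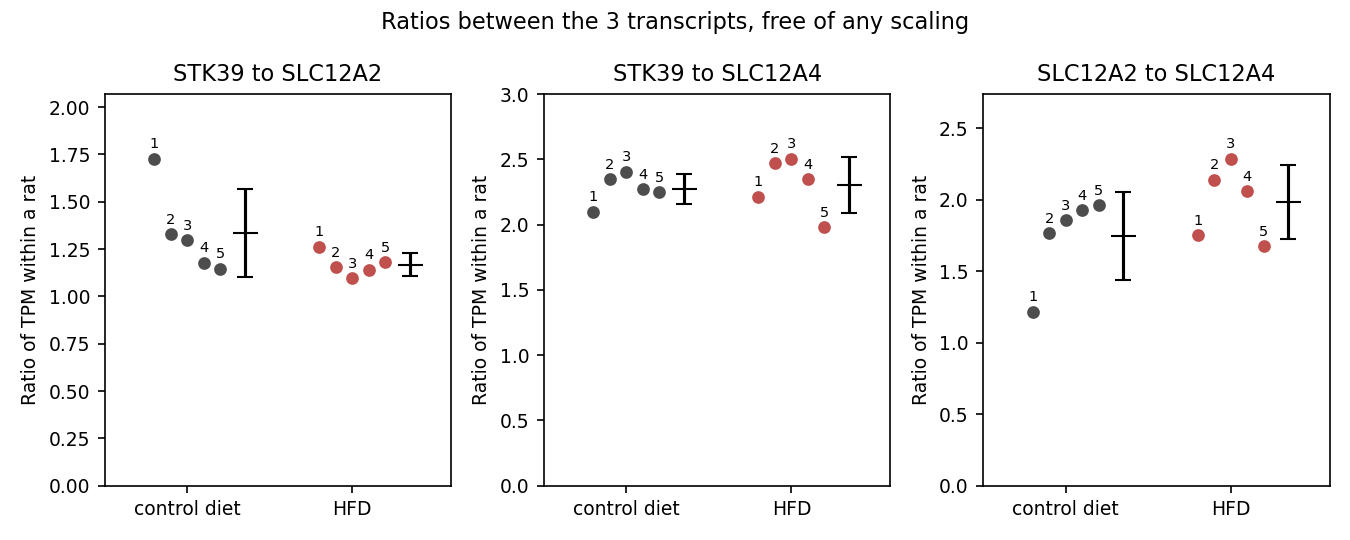
Ratio of TPM within each rat for the 3 pairs of genes, with points numbered by replicate and the mean and SD of each diet. Control rat 1 is at the edge of its own diet for all 3 pairs (1.73, 2.10 and 1.22), and the other rats of both diets overlap.

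Covariation of the kinase with its substrates was followed within the diets, on log2 values centred on each diet's mean. In HFD-fed rats STK39 and SLC12A2 had the same order, with rat 3 highest, then rats 2, 4, 5 and 1, and in the control rats the orders of both genes were nearly opposite, with rats 1, 2, 3, 4 and 5 from high to low for STK39 and rats 5, 4, 2, 3 and 1 for SLC12A2. Over 10 rats Pearson's r was 0.02 (exact permutation over all pairings within the diets, p = 0.968, adjusted over 3 relations 0.968) and Spearman's rho -0.15 (exact p = 0.706). Without control rat 1, r was 0.63 (exact p = 0.0844, n = 9) and rho 0.42 (exact p = 0.25). Without the 2 rats farthest from the median of STK39, control rat 1 and HFD rat 3, r was 0.44 (exact p = 0.255, n = 8). The kinase and SLC12A2 lay on the same side of their diet means in 7 of 10 rats. With TPM as deposited r was 0.85 (exact permutation p = 0.0752, adjusted over 3 relations 0.113), and 0.11 without control rat 1 (exact p = 0.749, n = 9). The value thus depended on control rat 1 on both scales, in opposite directions, and on neither scale was the adjusted p under 0.05. The order shared by HFD-fed rats was absent from the TPM as deposited, where HFD rat 5 was highest for STK39 and HFD rat 4 for SLC12A2.

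STK39 and SLC12A4 had an r of 0.43 (exact permutation p = 0.296, adjusted over 3 relations 0.444) and a rho of 0.50 (exact p = 0.23, adjusted 0.344) over 10 rats. Leaving out control rat 1 took r to 0.09 (exact p = 0.891, n = 9) and rho to -0.22 (exact p = 0.591). Without control rat 1 and HFD rat 3, r was 0.19 (exact p = 0.773, n = 8). Leaving out HFD rat 5 instead took r to 0.70 (exact p = 0.0458, adjusted over 3 relations 0.138, n = 9), so that the value moved either way with a single rat. TPM as deposited gave an r of 0.66 (exact permutation p = 0.00139, adjusted over 3 relations 0.00417), and 0.68 without control rat 1 (exact p = 0.0128, adjusted 0.0385, n = 9). The relation was thus past the threshold with TPM as deposited but not after rescaling, and the cause of this difference was not tested.

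SLC12A2 and SLC12A4 lay on opposite sides of their diet means in 6 of 10 rats, with r = -0.64 (exact permutation p = 0.0737, adjusted over 3 relations 0.221) and rho = -0.48 (exact p = 0.185, adjusted 0.344). In control rat 1 the deviation from the diet mean was -17.9% for SLC12A2 and 16.3% for SLC12A4. Without it r was -0.20 (exact p = 0.675, n = 9), and without it and HFD rat 1 it was -0.35 (exact p = 0.533, n = 8). Of the 3 relations, 0 had an adjusted p under 0.05 on the rescaled values.

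**Figure D3:**
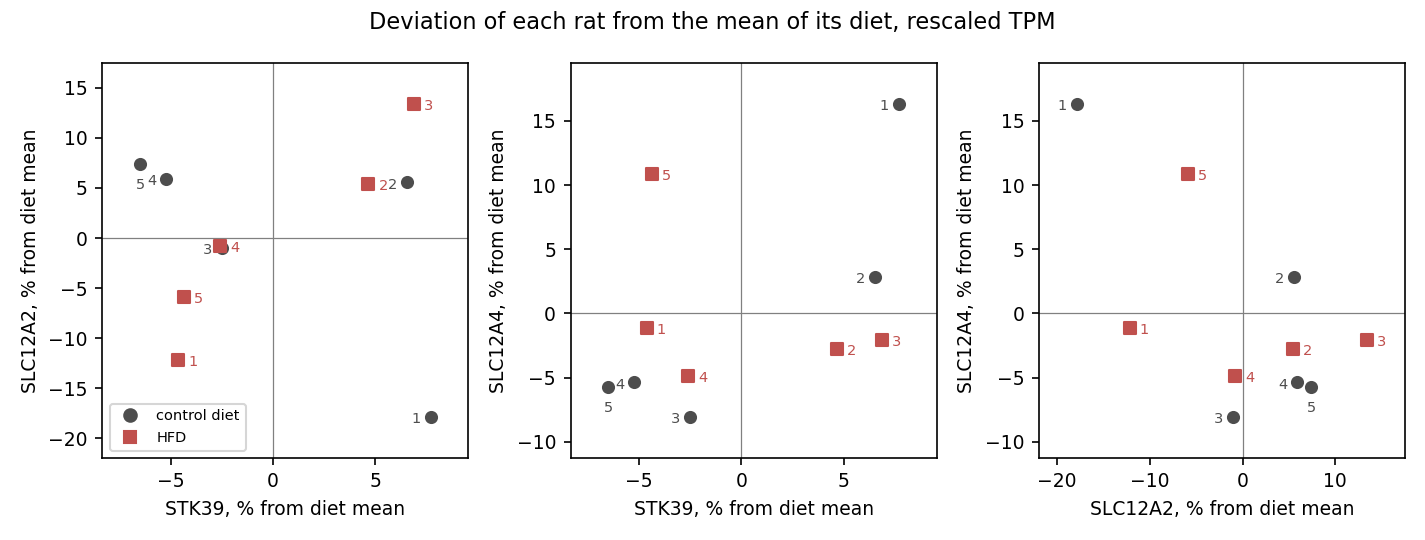
Deviation of each rat from the mean of its own diet, in percent of rescaled TPM, for STK39 against SLC12A2, STK39 against SLC12A4 and SLC12A2 against SLC12A4, with points numbered by replicate. Control rat 1 is at a corner of each panel, and in the first panel the HFD-fed rats run from lower left to upper right while control rat 1 lies at the lower right.

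The genes whose pattern over the rats was most like each member are given as a description, from 1990 other named genes that averaged at least 10 rescaled TPM, by Pearson's r of centred values over 10 rats. Most of the 6272 genes with such a mean had no symbol here, so the rankings and shares below cover the named genes only. For STK39 they included KRT8 (0.94), TMEM242 (0.91), SUMO3 (0.91) and PDCD6 (0.90). KRT8, a keratin of simple epithelia, had an r of 0.92 without control rat 1. For SLC12A2 they were ANP32E (0.94), APOO (0.92), RBX1 (0.90), RAD23B (0.90) and ST3GAL6 (0.90), of which ANP32E had 0.87 without that rat.

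For SLC12A4 the nearest were PLVAP (0.95), APLP2 (0.93), MRPL14 (0.93), ALDH2 (0.93) and DBP (0.92). PLVAP, the endothelial marker, had 0.91 without control rat 1, and its rescaled TPM was 97.5 there and 51.1 to 67.2 elsewhere. The part of endothelial cells in the SLC12A4 level was not tested. These lists depended on control rat 1. Without it, 0 of the 5 genes listed for STK39 stayed among its nearest 5, and their ranks were 10 to 32. For SLC12A2 and SLC12A4, 1 gene each stayed, ANP32E and PLVAP. The gene nearest to STK39 was then CUL4B, a ubiquitin ligase scaffold, with an r of 0.95, against -0.31 over 10 rats. Over 10 rats the members themselves were not near one another on this scale. Of the 1990 genes, 42.8% were more like SLC12A2 than STK39 was, and 86.8% more than SLC12A4 was. For SLC12A4, 41.4% were more like it than STK39 was. Leaving out control rat 1, these shares were 9.55%, 86.1% and 38.1%. Seen from STK39, 68.9% were more like it than SLC12A2 was, and 45.4% more than SLC12A4 was. Without control rat 1 these were 20.2% and 72.6%.

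Of 20 other genes listed for this network, 5 could be matched to an identifier, those of the MO25 scaffolds and of the phosphatase subunits. The other SLC12 carriers, OXSR1, the WNK kinases and the adaptors of WNK degradation were not analysed here. Among the 5, 0 had an unadjusted p under 0.05 by limma, beside 8.59% of all genes. Their median log2 difference was 0.14, with 3 positive and 2 negative values, against 0.01 over all genes tested. The median without control rat 1 was -0.01, with 2 positive and 3 negative values, so that both the median and the balance of signs rested on that rat.

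The scaffold CAB39L was more abundant than the kinase it binds, except in control rat 1, with rescaled TPM of 228, 489, 395, 458 and 409.5 in control rats 1 to 5. HFD rats 1 to 5 had 426, 516, 467, 395 and 403. Control rat 1 was the lowest by far, at 0.534 of the median of the other rats, and the others overlapped. Means were 441 ± 50.2 on the HFD and 396 ± 101 on the control diet (SD, n = 5 each; exact permutation p = 0.46, two-sided). The log2 difference was 0.20, and 0.01 without control rat 1. CAB39 was lower, with 68.0 ± 3.44 against 62.7 ± 11.2 (SD, n = 5 each; exact permutation p = 0.437). Its log2 difference moved from 0.14 to 0.01 without control rat 1, which had 43.0 against 64.9 to 73.9 in the other rats.

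The phosphatase subunits split in the same rat. PPP1CB had 54.4 there, in rescaled TPM, against 90.3 to 111 elsewhere, and its log2 difference of 0.16 turned to -0.01 without that rat. PPP1CA was high there, at 151 against 102 to 129 in the others. Its means were 109.6 ± 4.76 on the HFD and 125 ± 16.7 on the control diet (SD, n = 5 each). The log2 difference was -0.18, with an unadjusted p of 0.0681 and an adjusted p of 0.572 by limma, and -0.11 without control rat 1. PPP1CC was the steadiest gene of the network, with a within-diet SD of 0.06 on the log2 scale, below that of 98.7% of the 939 abundant genes. It had 89.5 ± 4.01 on the HFD and 95.7 ± 3.34 on the control diet (SD, n = 5 each). The exact permutation p was 0.0397, two-sided, and limma gave an unadjusted p of 0.103 and an adjusted p of 0.576. The log2 difference was -0.10, with -0.08 without control rat 1 and 0.01 with TPM as deposited.

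In control rat 1, SLC12A2, CAB39L, CAB39 and PPP1CB were below the lowest of the other rats, and SLC12A4, STK39, PPP1CA and PPP1CC above the highest. All 8 were divided by the same factor, so the differences among them within the library do not depend on the scaling, but the side on which a gene falls does. With TPM as deposited all 8 were below the median of the other rats there, from 0.374 of it for CAB39L to 0.949 for PPP1CA.

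**Figure D4:**
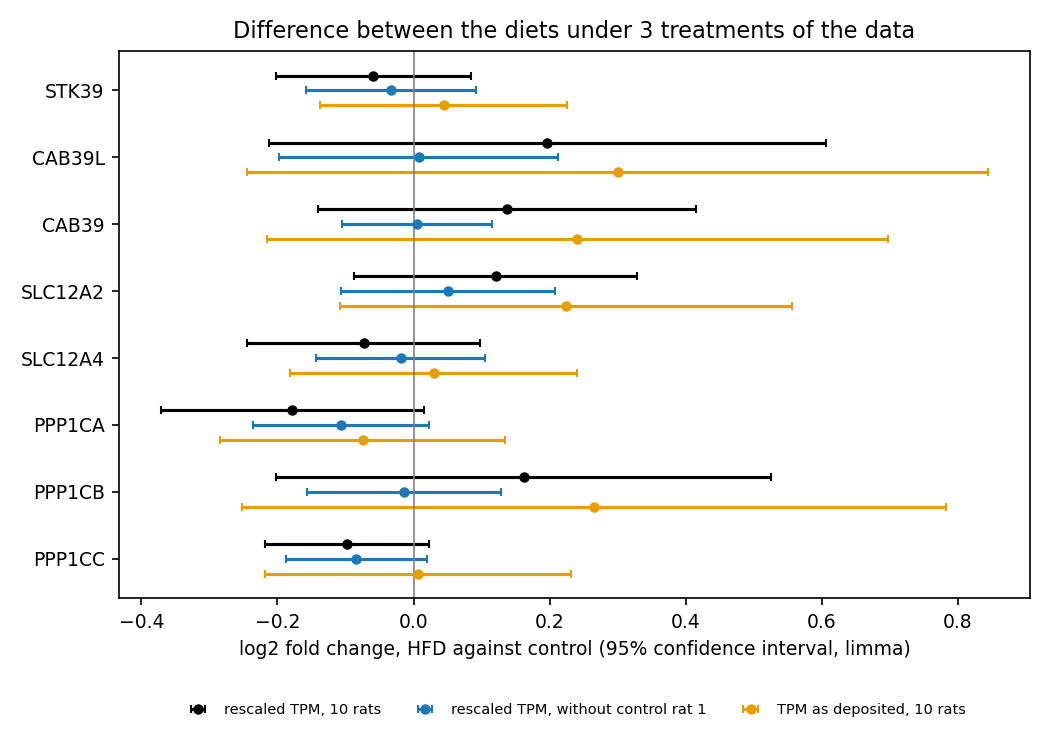
Log2 difference, HFD-fed minus control rats, with its 95% confidence interval by limma, for the 3 members and 5 network genes, from rescaled TPM of 10 rats, from rescaled TPM without control rat 1 and from TPM as deposited. Every interval spans 0, and the values without control rat 1 lie between -0.11 and 0.05.

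Of 28 other transport genes of CSF secretion listed, 19 could be named. Of these, 4 had an unadjusted p under 0.05, all lower in HFD-fed rats, beside 4.83% of all genes in that direction. All 19 averaged over 10 rescaled TPM, and abundant genes leaned the same way. With a mean of at least 10, 491 of 6272 genes were lower at an unadjusted p under 0.05 and 128 higher. By limma 0 of the 19 had an adjusted p under 0.05, and their median log2 difference was -0.01. The 4 were FXYD1, the regulator of the sodium pump, TRPV4, a cation channel, SLC9A3R1, a membrane scaffold, and KCNE2, a potassium channel subunit. Their log2 differences, in this order, were -0.65, -0.38, -0.19 and -0.19. Without control rat 1 they were -0.37, -0.24, -0.14 and -0.23. Which of the 19 genes passed varied. Leaving out control rat 1, 6 did, 5 lower (FXYD1, SLC9A3R1, KCNE2, AQP1 and KCNK1) and ATP1B2, a sodium pump subunit, higher (0.21, unadjusted p 0.00407 by limma), while TRPV4 no longer passed (unadjusted p 0.0767). With TPM as deposited, 2 passed, FXYD1 lower and ATP1B2 higher (0.18, unadjusted p 0.0451). The replicate block left 2 (KCNE2 and TRPV4), as did leaving out HFD rat 4. FXYD1 and SLC9A3R1 passed without control rat 3 and without control rat 5, and SLC9A3R1 and KCNE2 without HFD rat 2. Leaving out HFD rat 1 left 1 (SLC9A3R1). ATP1B2, AQP1 and KCNK1 are named because of these values.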

How the data were processed

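Choroid plexus RNA of 10 rats, 1 library per rat, was sequenced as paired-end reads. Alignment by the authors was against Rnor_6.0, with STAR (2.7.2a per the submitters' processing notes, another version in the study's methods), and RSEM 1.3.3 quantified the genes. The deposited values are TPM and FPKM, rounded to 2 decimals. Deposited FPKM and TPM differ within a rat by a fixed factor, so only TPM were used. The study's own test used raw counts, which were not used here. TPM hold no depth, so no counting error is given.

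TPM were divided by each rat's median ratio to the geometric mean over 12037 genes. Genes with a mean of at least 1 were tested with limma 3.58.1 (R 4.3.3; mean-variance trend, diet as the only term) on log2(TPM + 0.1), on which scale fold changes of low genes are understated, with Benjamini-Hochberg adjustment over 12198 genes. The limma step and the likeness ranking were tested on simulated data. Single genes and ratios used exact permutation over 252 assignments, and correlations exact permutation within diets, in python 3.11.15 (scipy 1.17.1, numpy 2.4.6, pandas 2.3.3), and figures used matplotlib 3.10.9.

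Symbols came from a shortened copy of the paper's gene table and its list of changed genes, 2015 identifiers in all, without the values of either. The members and lists were chosen with earlier results of these data known. Named genes were the 3 members, the matched network genes, the CSF secretion genes with an unadjusted p under 0.05, and the 5 genes most like each member. For STK39, 1 of these 5 is not reported here. None of the neural and glial markers could be matched, which says nothing on their level. Alternatives were other scalings, pseudocounts, filters and variance models, the replicate block and each rat left out.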

Additional observations from a re-analysis of the deposited data

Results flagged for a closer look

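Within a diet, the highest or lowest of 5 rats was marked where more than 0.71 of the whole range separated it from its neighbour (Dixon's ratio). This held in 5 of 30 groups of values, where chance would mark about 1.5 if the groups were independent. They share the same rats, and FXYD1 was among them because of its p in these data, so the count does not gauge chance. Of the 5, 4 were in control rat 1.

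That rat was low in rescaled TPM for CAB39, at 43.0 against 65.0 to 70.9 in the other control rats, and for PPP1CB, at 54.4 against 97.5 to 101. It was high for FXYD1, at 2724 against 936 to 1119. Its ratio of SLC12A2 to SLC12A4, 1.22 against 1.77 to 1.96, does not depend on any scaling. HFD rat 5 was high for SLC12A4, at 121 against 103.9 to 108 in the other HFD-fed rats.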

How the results depend on the processing

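The log2 fold changes of the 3 members had no adjusted p under 0.05 in any of the 20 alternatives. The sign changed with TPM as deposited for SLC12A4 (0.030), STK39 (0.044) and PPP1CC (0.0060), and for PPP1CB with array weights (-0.014), without control rat 1 (-0.014) and with TPM as deposited without control rat 1 (-0.0018), an alternative chosen after seeing the data. Leaving out 1 rat gave 0.05 to 0.17 for SLC12A2, -0.11 to -0.02 for SLC12A4, -0.08 to -0.03 for STK39 and -0.014 to 0.21 for PPP1CB. With 1 rat left out, the log2 difference of STK39 to SLC12A4 ran from -0.017 to 0.068 and changed sign without control rat 1, HFD rat 2 or HFD rat 3. That of STK39 to SLC12A2 ran from -0.23 to -0.08, and that of SLC12A2 to SLC12A4 from 0.07 to 0.25. The r of STK39 with SLC12A2 ran from -0.25 to 0.63 when 1 rat was left out and was -0.021 with upper-quartile rescaling, and Spearman's rho was -0.15. TPM as deposited gave an r of 0.85, or 0.11 once control rat 1 was left out. The r of STK39 with SLC12A4 ran from 0.087 (without control rat 1) to 0.70 (without HFD rat 5), and was past the threshold with TPM as deposited, with all rats (0.66) and without control rat 1 (0.68). That of SLC12A2 with SLC12A4 ran from -0.75 to -0.20 with 1 rat left out and changed sign with TPM as deposited (0.41, or 0.098 once control rat 1 was left out). The cause was not tested.

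The number of genes with an adjusted p under 0.05, 0 by limma, was 1 without a filter and 3 with array weights. Genes at an unadjusted p under 0.05 numbered 1048 (459 higher, 589 lower), 624 with TPM as deposited (470 higher, 154 lower), 619 with a mean of at least 10, which tests fewer genes (128 higher, 491 lower), 1874 with array weights and 793 to 1441 with 1 rat left out, the highest without control rat 1. Network genes numbered 0, against 2 with array weights (PPP1CA and PPP1CC) and 0 to 1 with 1 rat left out (PPP1CA without control rat 5). CSF secretion genes numbered 4, against 2 with TPM as deposited and with the replicate block, and 1 (without HFD rat 1) to 6 (without control rat 1, with ATP1B2 higher and 3 of the 4 shared) with 1 rat left out. Both diets carry replicate numbers 1 to 5, but same-numbered rats deviated with correlations of -0.038 to 0.116 and 3 of 10 rats correlated best with their own number, so they were not taken as pairs. With the replicate block 1141 genes had an unadjusted and 0 an adjusted p under 0.05, and it changed no call of a member or ratio.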
